A study of Mus musculus with 18 samples.

Results

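The genes described here encode the nuclear subunits of the mitochondrial respiratory chain and of ATP synthase. They were chosen by symbol, by the patterns used for subunits of complex I (Nduf), complex II (Sdh), complex III (Uqcr and Cyc1), complex IV (Cox4 to Cox8) and ATP synthase (Atp5). The patterns matched 90 of the 52093 symbols in the iWAT and BAT files, of which 86 stand for single genes and 4 for joint rows of overlapping genes. Of the 86 single genes, 83 encode subunits: 37 of complex I, 4 of complex II, 9 of complex III, 18 of complex IV and 15 of ATP synthase (complex V). The other 3, Cox4nb, Atp5s and Atp5sl, carry a similar symbol but are not subunits and were kept out of all counts.

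RNA-seq had been performed on adipocytes of inguinal white fat (iWAT, n = 6), adipocytes of epididymal white fat (eWAT, n = 6) and brown adipose tissue (BAT, n = 6). All samples came from untreated wild-type male mice of the C57BL/6 strain (C57BL/6J in the paper), aged 16 weeks and kept on regular chow, and no group carried an engineered allele. White adipocytes had been freed with collagenase and collected after floating, whereas BAT had been used as tissue, so depot and preparation cannot be told apart. BAT carries "adipocytes" in one label and "tissue" in another, and the methods describe tissue. Nothing in the labels says what the number in a sample title stands for, so the p-values below measure the spread between these samples. In bulk RNA, fewer cells of a type and less RNA per cell cannot be told apart.

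Complexes I and II pass electrons from NADH and succinate to ubiquinone, complex III passes them on to cytochrome c, and complex IV hands them to oxygen. Complexes I, III and IV pump protons, and ATP synthase uses the proton gradient to make ATP. Brown adipocytes are known for many mitochondria, a high respiratory chain capacity and UCP1, which lets protons back across the inner membrane without ATP synthesis. Several complex IV subunits and the c subunit of ATP synthase are encoded by more than one gene, and the paralogs are used to different degrees in different tissues.

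The total of reads behind each library was 22929576 to 34512470. The files of iWAT and BAT hold 1 merged row per gene (exons of all transcripts joined), while those of eWAT hold 1 row per transcript, of which the most-read was used. Comparisons with eWAT therefore also compare 2 kinds of row, and values per kilobase are set side by side with that limit. The listed markers of adipocytes summed to 15405 to 19773 RPM (reads scaled to a library total of 1000000) in iWAT, 13413 to 21713 in eWAT and 3280 to 4509 in BAT. The listed brown adipocyte markers summed to 33.8 to 50.5 in iWAT, 5.37 to 11.4 in eWAT and 2596 to 3565 in BAT. Some libraries stood apart: the 10 listed skeletal muscle genes summed to 5063 RPM in BAT sample 12, against 1.72 to 488 in the other BAT samples. Endothelial markers were highest in iWAT sample 14 (816 RPM) and eWAT sample 8 (903 RPM), macrophage markers in eWAT sample 15 (3110 RPM) and epididymal markers in eWAT sample 14 (113 RPM). Epididymal markers were also found in eWAT sample 15 (93.2 RPM) and, at a lower level, in eWAT sample 13 (5.04 RPM).

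Subunit transcripts took a larger share of the reads in BAT than in white adipocytes, with a ratio of medians of 3.02 between BAT and iWAT. The 83 genes together received 0.618% to 0.826% of the reads in iWAT samples (median 0.697%), 0.468% to 0.668% in eWAT samples (median 0.562%) and 2.00% to 2.32% in BAT samples (median 2.11%). All 6 BAT samples lay above all 12 white adipocyte samples. Of the 83 genes, 80 had enough reads for a test (at least 10 reads in at least 6 samples). Against iWAT, 76 of these 80 were higher in BAT, 2 were lower and 2 were not called by edgeR's quasi-likelihood test at an adjusted p under 0.05. Among all 19733 genes tested, 67.6% were called, with 33.6% higher in BAT and 34.0% lower. The median log2 fold change was 1.84 for the subunits (3.59-fold) and -0.01 for all genes. The samples of both depots did not overlap for 77 subunits, compared with 47.7% of all genes. When a change of more than 2-fold was required by the test itself, 70 subunits were higher in BAT, against 11.7% of all genes. Scaling by the total of reads alone moved the median of all genes to -0.27 and that of the subunits to 1.58, with 76 still higher and 2 lower.

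Against eWAT, 76 of the 80 tested subunits were higher in BAT, 1 was lower and 3 were not called, while 70.3% of all 18383 genes tested were called, 34.7% higher and 35.6% lower. The median log2 fold change of the subunits was 2.16 (4.48-fold), and 77 of them did not overlap between depots (51.5% of all genes). This comparison shares the BAT samples with the one against iWAT, so the counts are not independent of each other. For 16 tested subunits a row of the symbol is identical in both kinds of file. On these rows 15 were higher in BAT than in eWAT, with a median of 1.72 and 67.9% of all such genes called in either direction. On the same rows 15 were also higher in BAT than in iWAT, with 62.9% of all such genes called. For Atp5l and Uqcrfs1 the identical row is not the merged row used for the other counts but another row of the symbol. For Cox7c it is a single-exon row at a copy of the gene on chromosome 11.

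**Figure D1:**
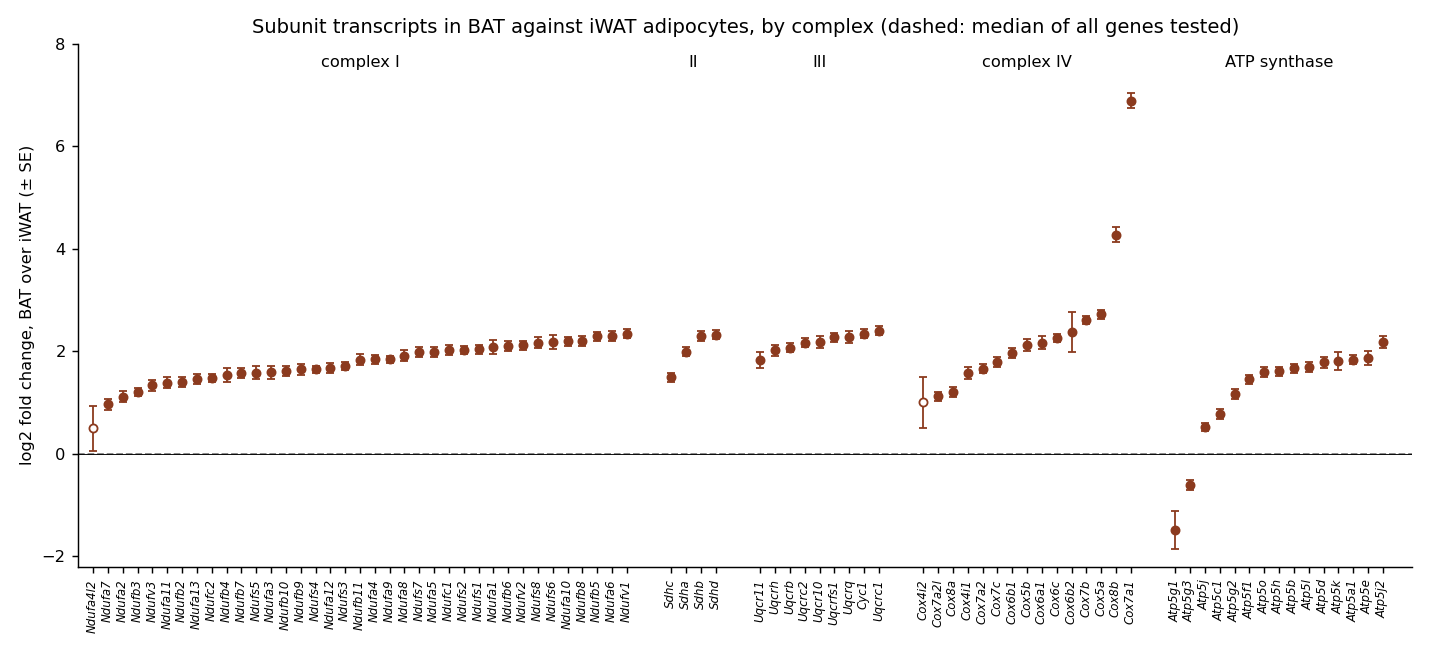
Log2 fold change of each tested subunit in BAT over iWAT adipocytes (y axis, ± SE from edgeR), ordered within its complex (x axis); open circles were not called, and the dashed line at -0.01 is the median of all 19733 genes tested. Most subunits lie between 1 and 3, Cox8b and Cox7a1 lie far above, and Atp5g1 and Atp5g3 lie below 0.

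By complex, the summed RPKM in BAT was 3.79 times that in iWAT for complex III, 3.58 times for complex II, 3.51 times for complex IV, 2.79 times for complex I and 2.34 times for ATP synthase (ratios of medians). ATP synthase thus showed the smallest ratio of the 5 complexes. Its summed RPKM was 846 to 1164 in iWAT samples and 2168 to 2468 in BAT samples, while that of complex III was 533 to 737 in iWAT and 2150 to 2556 in BAT. In iWAT the sum of the 15 ATP synthase genes was therefore above that of the 9 complex III genes, and in BAT their ranges overlapped. The sums cover unlike numbers of genes and depend on the lengths of the merged rows. They are scaled by the library total, unlike the log2 fold changes, which use TMM factors. With TMM factors the ratios were 4.82 for complex III, 4.71 for IV, 4.57 for II, 3.67 for I and 2.97 for ATP synthase. The order of complexes II and IV thus depended on the scale. The median log2 fold changes of the single genes were 1.84 for complex I, 2.15 for complex II, 2.18 for complex III, 2.12 for complex IV and 1.61 for ATP synthase. The difference between complexes was not tested.

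In complex I, all but 1 of the 37 subunits were higher in BAT than in iWAT. Ndufv1, which carries the site that accepts electrons from NADH, showed the largest change. Its level was 107 to 144 RPM in iWAT (median 127), 70.1 to 117 in eWAT (median 84.3) and 480 to 616 in BAT (median 524). Every BAT sample thus lay above every white adipocyte sample, and the log2 fold change over iWAT was 2.35 ± 0.09 (SE; adjusted p = 5.07e-11). The subunits with the highest RPKM in BAT were Ndufb9, an accessory subunit of the membrane arm, and Ndufa4, which was first described in complex I and is now mostly assigned to complex IV. Ndufb9 had an RPKM of 115 ± 17.8 (SD, n = 6) in iWAT and 301 ± 27.6 in BAT, a log2 fold change of 1.65 ± 0.10 (adjusted p = 5.03e-09). Ndufa4 had an RPKM of 85.5 ± 9.78 in iWAT and 257 ± 19.7 in BAT, with a log2 fold change of 1.85 ± 0.09 (adjusted p = 3.92e-10). Neither gene overlapped between iWAT and BAT. The 7 nuclear subunits that form the conserved core of the enzyme, a group listed after the values were seen, were all higher in BAT, with a median log2 fold change of 2.04 over iWAT and a range of 1.72 to 2.35. The other 30 subunits had a median of 1.65 and a range of 0.50 to 2.30.

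Complex II is the only complex without a mitochondrially encoded subunit, and all 4 of its genes were higher in BAT. Sdhd, which helps to anchor the enzyme in the membrane, ranged from 83.6 to 112 RPM in iWAT (median 94.6), from 71.5 to 99.6 in eWAT (median 86.9) and from 365 to 433 in BAT (median 393). The white depots overlapped each other and neither overlapped BAT. The log2 fold change of Sdhd over iWAT was 2.33 ± 0.10 (adjusted p = 1.17e-10). Sdha, the subunit that oxidizes succinate, was at 436 to 460 RPM in iWAT and reached 1411 to 1565 in BAT (log2 fold change 1.99 ± 0.08, adjusted p = 1.64e-10). Sdhc, the other membrane anchor, showed the smallest change of the complex, with a log2 fold change of 1.50 ± 0.09 (adjusted p = 2.51e-09).

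Complex III had the narrowest range of the 5 complexes, with log2 fold changes over iWAT between 1.83 and 2.41 for its 9 subunits. Uqcrc1, a large core subunit of the matrix side, ranged from 117 to 152 RPM in iWAT (median 119), from 70.8 to 108 in eWAT (median 88.4) and from 511 to 620 in BAT (median 556). The 3 depots did not overlap in RPM, and the log2 fold change of BAT over iWAT was 2.41 ± 0.09 (adjusted p = 5.58e-11). The gap between the white depots depended on the row. The log2 fold change of eWAT over iWAT was -0.49 on the most-read transcript and -0.16 with the row length as an offset (adjusted p = 0.208, edgeR). Uqcrfs1, the Rieske iron-sulfur protein, had the highest RPKM of the complex in BAT, with 104.7 ± 8.69 (SD, n = 6) in iWAT and 420.2 ± 21.6 in BAT. Uqcrb, which takes part in binding of ubiquinone, followed with 103 ± 9.59 and 360.0 ± 11.04. Their log2 fold changes were 2.27 ± 0.09 for Uqcrfs1 and 2.08 ± 0.08 for Uqcrb (adjusted p = 8.82e-11 for both). Uqcr11, a small accessory subunit, showed the smallest change, 1.83 ± 0.15 (adjusted p = 1.19e-07).

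Complex IV showed the widest spread, with paralogs at both ends. Of its 18 genes 15 were tested against iWAT, and 14 were higher in BAT. Cox7a1, the form of subunit VIIa known from heart and skeletal muscle, lies on chromosome 7 (mm9 chr7:30969190-30971049, + strand). It was close to the lower end of detection in white adipocytes, with 0.785 to 1.70 RPM in iWAT (median 1.12) and 0.676 to 1.19 in eWAT (median 1.07). In BAT it reached 109 to 133 RPM (median 119). The white depots overlapped each other, and BAT lay far above both. The log2 fold change was 6.90 ± 0.15 over iWAT (119-fold, adjusted p = 4.82e-12) and 7.20 ± 0.17 over eWAT (147-fold, adjusted p = 4.49e-16). The ubiquitous form, Cox7a2, changed much less: from 37.8 to 54.5 RPM in iWAT to 109 to 134 in BAT (log2 fold change 1.66 ± 0.08, adjusted p = 8.35e-10). Cox7a2l, a relative that takes part in joining complexes III and IV into supercomplexes, showed a log2 fold change of 1.12 ± 0.10 (adjusted p = 1.54e-07).

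Measured as a share of the RPKM of the Cox7a pair, Cox7a1 made up 67.5% ± 1.87 (SD, n = 6) in BAT, 5.11% ± 0.765 in iWAT and 5.17% ± 1.01 in eWAT. In other words, the pair was mostly Cox7a2 in white adipocytes and mostly Cox7a1 in BAT. The difference of 62.4 percentage points between BAT and iWAT and that of 62.3 points between BAT and eWAT both gave p = 0.00216 in a two-sided exact permutation test, the smallest that 6 against 6 samples allow (0.004 after adjustment over 24 share tests). Between eWAT and iWAT the difference was 0.0571 points (exact permutation p = 0.935).

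Cox8b, the heart and muscle form of subunit VIII (mm9 chr7:148084841-148086345, - strand), was graded over the 3 depots. It ranged from 20.2 to 34.2 RPM in iWAT (median 23.6), from 3.25 to 7.42 in eWAT (median 3.91) and from 352 to 488 in BAT (median 391). No depot overlapped another. The log2 fold change was 4.27 ± 0.15 for BAT over iWAT (19.3-fold, adjusted p = 3.15e-11), 6.70 ± 0.24 for BAT over eWAT (104-fold, adjusted p = 6.15e-14) and -2.38 ± 0.20 for eWAT over iWAT (5.19-fold lower, adjusted p = 1.44e-07). In BAT Cox8b had the highest RPKM of all complex IV subunits, 1119 ± 145 (SD, n = 6). The ubiquitous form, Cox8a, was at 124 to 191 RPM in iWAT and 295 to 373 in BAT (log2 fold change 1.20 ± 0.10, adjusted p = 1.15e-07). The share of Cox8b in the RPKM of the Cox8 genes was 65.0% ± 1.03 in BAT, 18.1% ± 2.58 in iWAT and 4.33% ± 1.20 in eWAT, and each of the 3 differences gave the smallest possible exact permutation p of 0.00216 (0.004 adjusted). Of the 5 listed brown adipocyte markers, 3 (Ucp1, Cidea and Ppargc1a) were also called higher in iWAT than in eWAT, and their part in the difference of Cox8b was not tested.

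Cox7a1 and Cox8b were as high without the BAT sample that held the most muscle transcripts. All 10 listed skeletal muscle genes were found, and their sum was 7.62 to 116 RPM in iWAT and 13.5 to 61.9 in eWAT. BAT sample 12, at 5063, had the lowest Cox7a1 (109 RPM) and the lowest Cox8b (352 RPM) of the 6 BAT samples. Without it the log2 fold changes over iWAT were 6.95 for Cox7a1 (adjusted p = 3.03e-11, edgeR) and 4.33 for Cox8b (adjusted p = 1.71e-10, edgeR). BAT samples 8 (488 RPM of muscle genes) and 6 (173 RPM) stayed in that fit. With all samples, 8 of the 9 tested muscle genes were called higher in BAT than in iWAT, and 8 of 9 higher than in eWAT. The part of muscle RNA in the values of these paralogs was not tested. Cox6a2, the muscle form of subunit VIa, reached 18.4 RPM in BAT sample 12 and 0 to 1.01 in the other BAT samples. In iWAT it ranged from 0 to 0.187 and in eWAT from 0 to 0.305. It was too rarely read for a test, as were Cox7b2 and Cox8c, known from testis, with at most 1 and 3 reads in any sample.

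**Figure D2:**
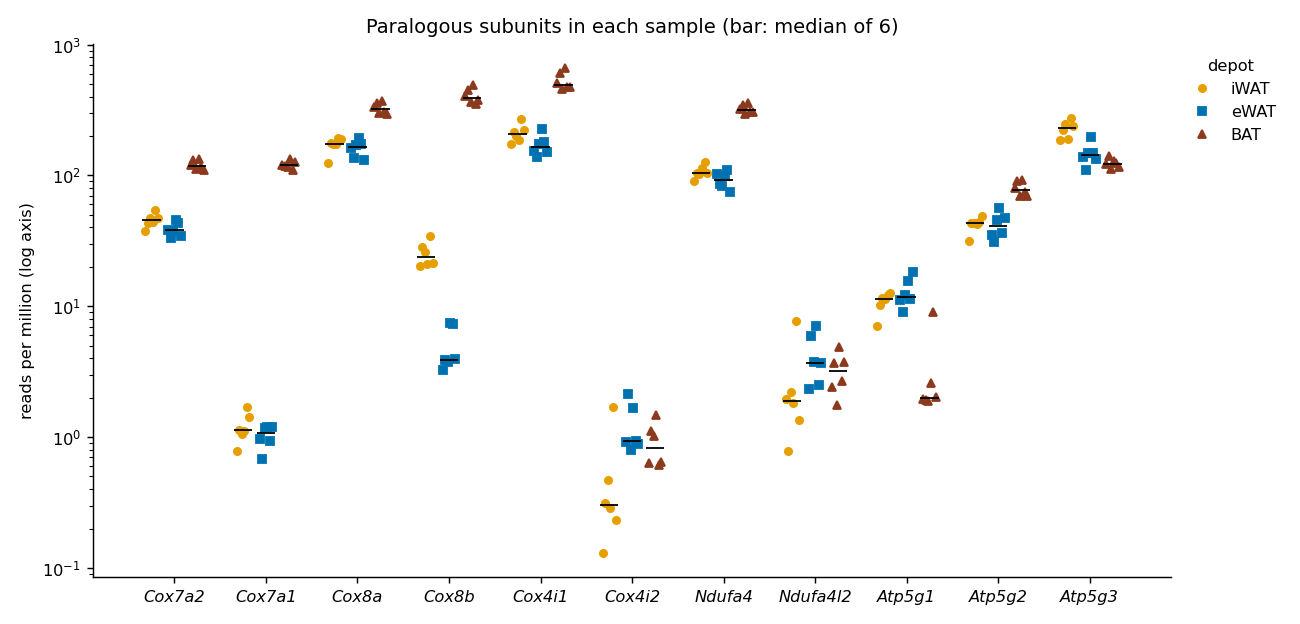
RPM (log y axis) of 11 paralogous subunits in each of the 6 iWAT, 6 eWAT and 6 BAT samples (points), with the median of each depot as a bar. Cox7a1 is at 109 to 133 in BAT and at most 1.70 in the other samples, while Atp5g1 is lower in BAT, with BAT sample 12 at 9.02 above the other 5.

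Other complex IV subunits changed as well. Cox5a, which lies next to the oxygen-reducing core, was at 53.0 to 71.2 RPM in iWAT and 301 to 364 in BAT (log2 fold change 2.73 ± 0.09). Cox7b was at 36.4 to 45.4 in iWAT and 191 to 234 in BAT (2.61 ± 0.07). These genes were named after their values were seen or as members of a family, and neither overlapped between the depots. Cox6a1, the ubiquitous form of subunit VIa, had the second highest RPKM of the complex in BAT, 836.5 ± 142 (SD, n = 6), against 223 ± 34.6 in iWAT (log2 fold change 2.17 ± 0.12, adjusted p = 2.74e-09). Cox6b1 changed by 1.97 ± 0.11 (adjusted p = 1.39e-09), and its rarely read paralog Cox6b2, known from testis, by 2.38 ± 0.39 (adjusted p = 8.32e-05). The share of Cox6b2 in the pair was 0.247% ± 0.0556 in BAT and 0.184% ± 0.102 in iWAT, a difference of 0.0634 points that did not pass (exact permutation p = 0.214).

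Cox4i2 and Ndufa4l2, the paralogs of Cox4i1 and Ndufa4 that are known from responses to low oxygen, were the 2 tested subunits not called between BAT and iWAT. Cox4i1 was at 174 to 269 RPM in iWAT and 453 to 659 in BAT (log2 fold change 1.58 ± 0.12, adjusted p = 3.06e-08). Cox4i2 was at 0.131 to 1.70 in iWAT (median 0.301), 0.794 to 2.14 in eWAT (median 0.927) and 0.612 to 1.47 in BAT (median 0.826). Its iWAT and BAT samples overlapped through iWAT sample 14, and the log2 fold change of 1.004 ± 0.49 did not pass (adjusted p = 0.0868, edgeR). Ndufa4l2 was at 0.781 to 7.68 RPM in iWAT (median 1.89), 2.33 to 7.09 in eWAT (median 3.69) and 1.76 to 4.85 in BAT (median 3.18). All 3 depots overlapped, and its log2 fold change over iWAT was 0.50 ± 0.44 (adjusted p = 0.326, edgeR). As a share of the RPKM with Ndufa4 it was 1.26% ± 0.368 in BAT, 2.90% ± 2.26 in iWAT and 5.58% ± 2.41 in eWAT. The share was lower in BAT than in eWAT (exact permutation p = 0.00216, 0.004 adjusted), and lower than in iWAT with p = 0.0325 (0.0458 adjusted), a call that was lost without BAT sample 12 (exact permutation p = 0.0733 adjusted) and without iWAT sample 14 and eWAT samples 8 and 13 (difference -0.77 points, exact permutation p = 0.0866 adjusted). The share of Cox4i2 in the RPKM with Cox4i1 was 0.679% ± 0.371 in eWAT, 0.198% ± 0.182 in iWAT and 0.151% ± 0.0408 in BAT. It was higher in eWAT than in BAT (exact permutation p = 0.00216, 0.004 adjusted) and than in iWAT (exact permutation p = 0.0108, 0.0173 adjusted). For both genes the highest iWAT value was that of sample 14, which also had the highest endothelial markers of the iWAT samples, and the highest eWAT values were those of samples 8 and 13, with the highest endothelial markers of the eWAT samples (903 and 609 RPM). The 6 endothelial genes summed to 145 to 816 in iWAT, 342 to 903 in eWAT and 282 to 527 in BAT, and none was at 0 in a whole depot. The part of endothelial RNA in these values was not tested.

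**Figure D3:**
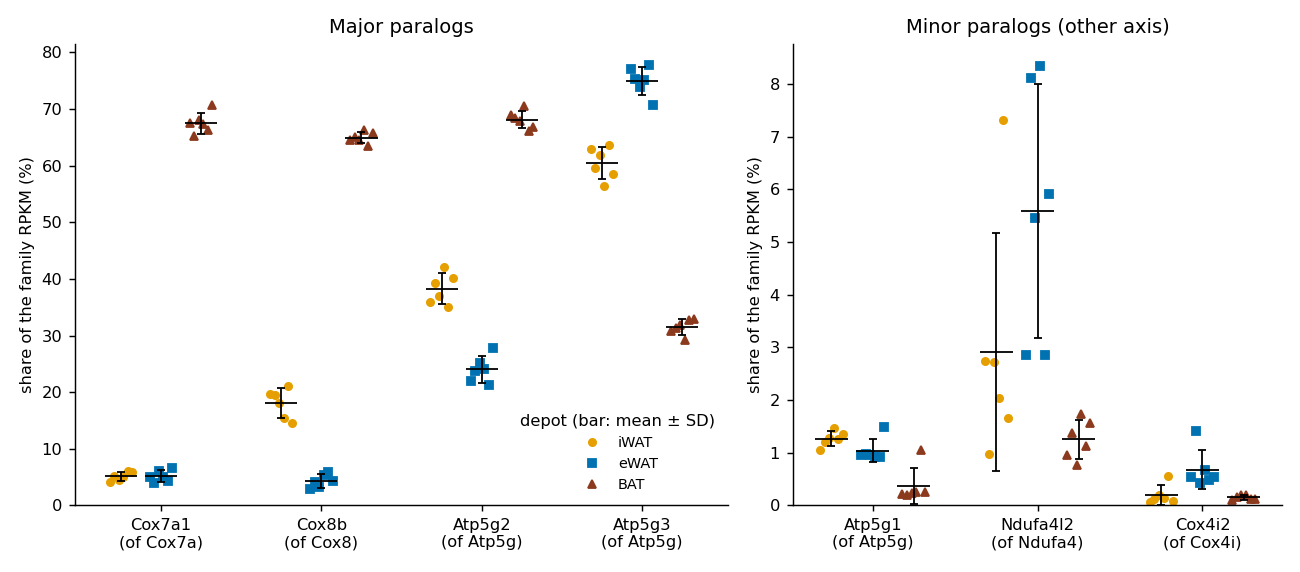
Share of each paralog in the summed RPKM of its family (y axis, percent), for every iWAT, eWAT and BAT sample (points) with the mean ± SD of 6; the right panel has a shorter axis. Cox7a1, Cox8b and Atp5g2 make up 63.4% to 70.7% of the RPKM of their families in all BAT samples and at most 42.2% in any white adipocyte sample. For Atp5g2 the share depends on row length, as the Atp5g3 row has 2181 bases in iWAT and BAT and 723 in eWAT.

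In ATP synthase 13 of 15 genes were higher in BAT than in iWAT and 2 were lower. Atp5b, the catalytic beta subunit, had the highest RPKM of the enzyme in BAT, 723 ± 32.6 (SD, n = 6), against 273 ± 29.7 in iWAT. Its level was 1132 to 1516 RPM in iWAT and 3178 to 3528 in BAT, with no overlap and a log2 fold change of 1.67 ± 0.10 (adjusted p = 2.74e-09). Atp5a1, the alpha subunit of the same catalytic head, changed by 1.84 ± 0.08 (adjusted p = 2.63e-10). Atp5j2, a small membrane subunit, showed the largest change, 2.18 ± 0.11 (adjusted p = 7.96e-10), from 39.6 to 59.3 RPM in iWAT to 165 to 223 in BAT. Atp5c1, the gamma subunit that forms the rotating shaft, changed by 0.78 ± 0.09 and Atp5j, a stalk subunit, by 0.53 ± 0.07, both named after their values were seen.

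The 2 genes that were lower in BAT both encode the c subunit, which forms the rotating ring in the membrane. The 3 genes Atp5g1, Atp5g2 and Atp5g3 are known to encode the same mature protein with different targeting peptides. Atp5g1 (mm9 chr11:95930166-95937008, - strand) was at 7.02 to 12.6 RPM in iWAT (median 11.4), 9.05 to 18.1 in eWAT (median 11.8) and 1.87 to 9.02 in BAT (median 1.98). Of the BAT samples, 5 were at or under 2.59, and sample 12, with its skeletal muscle transcripts, was at 9.02 and overlapped iWAT. The log2 fold change of BAT over iWAT was -1.48 ± 0.37 (2.78-fold lower, adjusted p = 0.00287) with all samples and -2.10 (adjusted p = 4.74e-08, edgeR) without sample 12. Over eWAT it was -1.68 ± 0.34 (adjusted p = 0.000256) with all samples and -2.30 (adjusted p = 5.75e-09, edgeR) without sample 12. The call over iWAT did not pass when a change of more than 2-fold was required (adjusted p = 0.138, edgeR).

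Atp5g3 (mm9 chr2:73746504-73749383, - strand) was at 186 to 272 RPM in iWAT (median 231) and 111 to 140 in BAT (median 123), with no overlap. Its log2 fold change of BAT over iWAT was -0.61 ± 0.09 (1.52-fold lower, adjusted p = 5.7e-05). In eWAT it was at 109 to 197 RPM (median 143), which overlapped BAT. The direction of this gene against eWAT depended on the row: the log2 fold change of BAT over eWAT was 0.09 ± 0.12 on read counts and -1.51 with the row length as an offset, as the eWAT transcript row has 723 bases and the merged row 2181. Atp5g2 behaved like the other subunits, with 31.4 to 48.7 RPM in iWAT, 30.8 to 56.5 in eWAT and 69.4 to 92.5 in BAT (log2 fold change over iWAT 1.17 ± 0.10, adjusted p = 1.08e-07).

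The makeup of the c subunit transcripts thus differed between iWAT and BAT, which share the kind of row. Atp5g3 made up 60.5% ± 2.85 (SD, n = 6) of the RPKM of the 3 genes in iWAT and 31.5% ± 1.38 in BAT, Atp5g2 38.2% ± 2.74 and 68.1% ± 1.56, and Atp5g1 1.27% ± 0.142 and 0.367% ± 0.335. The differences of -29.0 points for Atp5g3 and 29.9 points for Atp5g2 gave an exact permutation p of 0.00216 each (0.004 adjusted), and that of -0.90 points for Atp5g1 an exact permutation p of 0.00433 (0.00742 adjusted). The size of each share depends on the merged row, which has 2181 bases for Atp5g3, 647 for Atp5g2 and 4961 for Atp5g1. In mean reads per sample, Atp5g3 was above Atp5g2 in iWAT (6219 against 1155) and also in BAT (3859 against 2489). Which of the 3 genes gave the most transcripts in BAT was not tested. In eWAT the shares were 74.95% ± 2.52 for Atp5g3 and 24.0% ± 2.34 for Atp5g2, but the difference from iWAT turned round when read counts took the place of RPKM (-8.20 points for Atp5g3 and 5.62 points for Atp5g2), so no order of the white depots is given. The 5 genes of the catalytic head were all higher in BAT than in iWAT, with log2 fold changes of 0.78 to 1.87, and Atpif1, which encodes the inhibitor protein of that head, was lower in BAT than in iWAT (log2 fold change -0.53 ± 0.13, adjusted p = 0.00294) and than in eWAT (-1.10 ± 0.27, adjusted p = 0.0014).

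Differences between eWAT and iWAT adipocytes were smaller and depended on the row. On the most-read transcript, 34 of the 80 tested subunits were called, all of them lower in eWAT, against 25.6% of all genes called and 13.4% called lower. The median log2 fold change was -0.29 (all genes -0.003), and 13 subunits did not overlap between these depots (10.5% of all genes). Markers of some other cells moved with the depot, while 0 of 6 endothelial and 0 of 9 tested skeletal muscle genes were called. Of the 6 macrophage genes found, 5 were called higher in eWAT, and their sum was 242 to 3110 RPM in eWAT (median 376) and 56.9 to 323 in iWAT (median 75.7). All 3 tested mesothelial markers were higher in eWAT too, and the 4 listed summed to 2.93 to 27.7 RPM there and to at most 0.156 in iWAT, where Msln and Upk1b were at 0. Without eWAT sample 15, which had the most macrophage transcripts, 28 subunits were called, all lower in eWAT (22.7% of all genes called). The part of these cells in the difference was not tested. Besides Cox8b, the largest difference was that of Ndufs7, a core subunit of complex I next to the site of ubiquinone reduction. It ranged from 30.8 to 40.2 RPM in iWAT (median 39.0) and from 17.2 to 27.5 in eWAT (median 19.0), without overlap (log2 fold change -0.84 ± 0.12, adjusted p = 6.09e-05). Of the 7 core subunits of complex I all were called lower in eWAT (median -0.49), compared with 10 of the other 30 (median -0.27).

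With the row length taken into account, this picture did not hold. With the length as an offset 29 of the 80 subunits were higher in eWAT and 7 lower, against 46.8% and 5.61% of all genes, and the median was 0.03 while that of all genes moved to 0.38. The log2 fold change of Ndufs7 was then -0.03 (adjusted p = 0.844, edgeR). On the sum of all transcript rows 24 were higher and 34 lower, against 35.9% and 35.6% of all genes. On the transcript with the highest RPKM 7 were higher and 15 lower, against 31.2% and 26.5% of all genes. The eWAT row was shorter than the merged row for 66 of the 80 genes, with a median length ratio of 0.796. Across the 80 genes this ratio and the log2 fold change had a Spearman correlation of 0.50, where genes are not independent replicates and share the same libraries. On the 16 tested subunits with an identical row, 2 were called, both lower in eWAT, and the median was -0.26 (all such genes 12.8% called, 6.53% lower). These were Cox8b, with a log2 fold change of -2.41 (adjusted p = 1.37e-07, edgeR), and a row listed as Uqcrfs1, with -0.41 (adjusted p = 0.0226, edgeR). For Uqcrfs1 the rows compared above differ, and the identical row is another row of the symbol. Its other merged row has 1 exon on the + strand, opposite to the gene (chr13:30636702-30639272). This call is therefore not assigned to the transcript of the Rieske protein. Cox8b was lower in eWAT in each of the 16 alternatives run, with log2 fold changes between -3.41 and -1.94.

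**Figure D4:**
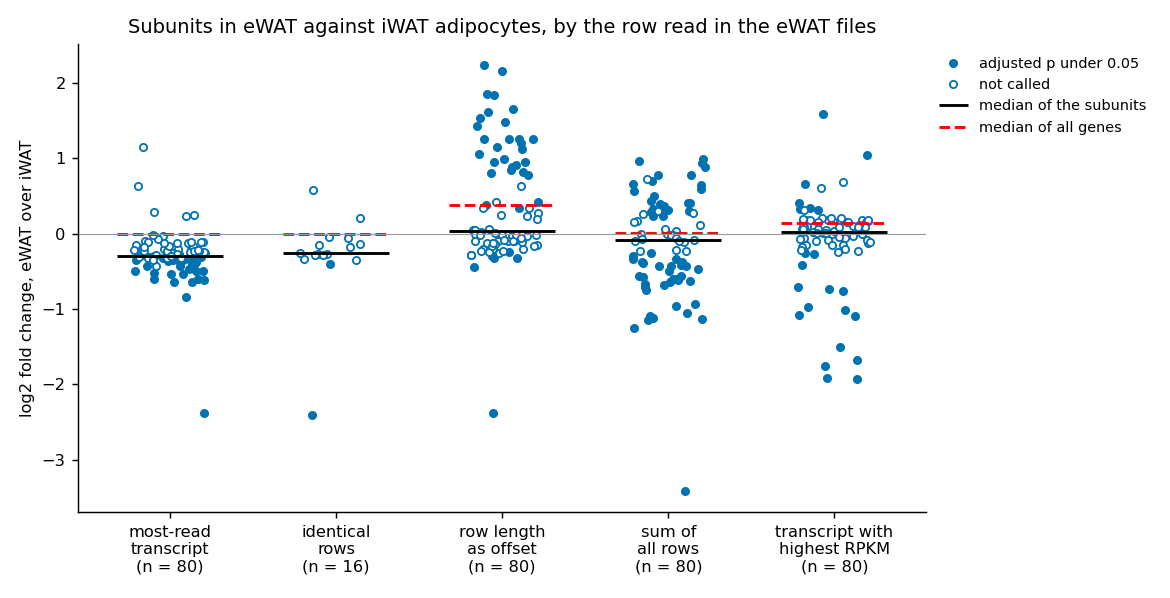
Log2 fold change of the tested subunits in eWAT over iWAT adipocytes (y axis) under 5 choices of the eWAT row (x axis); filled points were called, the black bar is the median of the subunits and the dashed red bar that of all genes tested. The medians of the subunits run from -0.29 to 0.03, below that of all genes in each choice, and Cox8b is the lowest point in each of the 5.

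Many subunit genes have processed copies elsewhere in the genome, and part of their reads was deposited under the copies. Of the 83 subunit genes, 20 have a copy of at least 95% identity over at least 70% of the coding sequence in mm9, and for 18 of them at least 10% of the BAT reads were on copy rows. For 8 genes it was at least 50%: Cox7c, Atp5l, Ndufb4, Ndufs5, Cox5b, Ndufs3, Atp5o and Atp5f1. In BAT samples 94.6% to 95.1% of the Cox7c reads were on copies, and in iWAT samples 93.0% to 95.2%. The share was thus alike in both depots. Adding the copy rows moved the ratio of BAT over iWAT by at most 0.188 on the log2 scale (median 0.0397 over 19 genes) and turned no sign. Atp5g1 has a copy on the same chromosome, which was lower in BAT too (log2 ratio of mean RPM -2.24, against -1.75 for the gene and -1.93 for both).

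**Figure D5:**
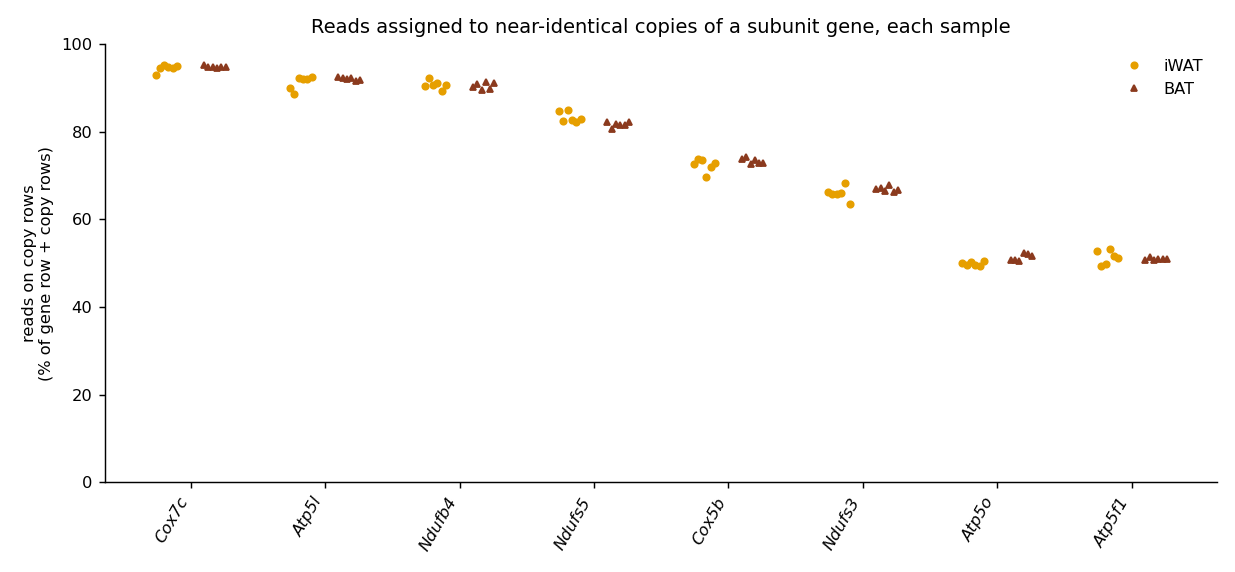
Share of the reads of a subunit gene and its near-identical copies that was deposited under the copies (y axis, percent), for the 8 genes with at least 50% in BAT, in each iWAT and BAT sample (points). For Cox7c all 12 samples lie between 93.0% and 95.2%, and the depots lie close together for each gene.

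Cox7c, a small subunit of complex IV, had the largest share of reads on copies. Its coding sequence of 192 bases lies in 2 exons on chromosome 13 (mm9 chr13:86185358-86186280, - strand), joined after base 75 counted from the start codon. A copy without intron on chromosome 11 (chr11:75413265-75413456, - strand) is the same in every base, and copies on chromosome 14 (chr14:39193733-39193924, + strand) and chromosome 17 (chr17:26038807-26038998, + strand) differ at 2 bases each. The sequences are shown to compare the gene with its copies. Capitals mark the bases around the exon junction in the gene and the differing bases in the copies, which are C68A and A173G on chromosome 14 and G30C and G107A on chromosome 17 (base of the gene, position from the start codon, base of the copy).
Cox7c coding sequence: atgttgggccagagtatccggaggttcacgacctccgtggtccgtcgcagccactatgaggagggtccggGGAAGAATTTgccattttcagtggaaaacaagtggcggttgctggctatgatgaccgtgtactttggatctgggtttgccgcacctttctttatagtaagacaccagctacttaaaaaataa
Copy on chromosome 14: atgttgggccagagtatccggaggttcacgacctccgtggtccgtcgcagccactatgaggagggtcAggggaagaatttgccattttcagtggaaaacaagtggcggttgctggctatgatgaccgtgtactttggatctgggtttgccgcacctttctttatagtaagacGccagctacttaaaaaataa
Copy on chromosome 17: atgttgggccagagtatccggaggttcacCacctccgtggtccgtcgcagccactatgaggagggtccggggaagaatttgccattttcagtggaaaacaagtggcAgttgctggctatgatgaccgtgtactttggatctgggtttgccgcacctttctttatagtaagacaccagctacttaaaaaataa

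The row listed as Cox7c with the most reads was itself a single-exon row at the chromosome 11 copy (chr11:75413151-75413547), with 1643 to 3561 reads per iWAT sample and 7165 to 10864 per BAT sample. The row of the gene with its 3 exons held 129 to 215 and 409 to 623 reads. The most-read row of Atp5l likewise was a single-exon row, on chromosome 5 (chr5:24087271-24087725). The values of Cox7c and Atp5l therefore come from single-exon rows, whereas those of the other 6 genes come from the gene's own row of several exons, without the reads on the copy rows. Replacing both rows by those with several exons left 76 subunits higher and 2 lower in BAT than in iWAT.

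The 5 usable rows of mitochondrially encoded subunits were all higher in BAT than in iWAT, with a median log2 fold change of 1.61. They encode mt-Nd2, mt-Nd3 and mt-Nd5 of complex I, mt-Cytb of complex III and mt-Co1 of complex IV. The mt-Nd3 row was rarely read, with 0.872 to 5.20 RPM in iWAT and 4.88 to 7.76 in BAT, whereas mt-Nd2 was at 5296 to 8882 in iWAT. mt-Co1, the subunit that reduces oxygen, had an RPKM of 7089 to 13058 in iWAT (median 8806), 8953 to 13115 in eWAT (median 10015) and 18273 to 21812 in BAT (median 21069). BAT did not overlap the white depots. Its log2 fold change over iWAT was 1.43 ± 0.16 (adjusted p = 3.28e-06). Of the 3 rows tested in eWAT, all were higher in BAT and none differed from iWAT at the threshold (edgeR), with log2 fold changes of eWAT over iWAT of 0.14 to 0.32. The largest of these was that of the rarely read mt-Nd3.

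Other genes of the pathway were counted from lists. Of the 6 electron carriers and entry points, all were higher in BAT than in iWAT (median log2 fold change 2.03), among them Cycs, which encodes cytochrome c (2.32 ± 0.13, adjusted p = 1.82e-09), and Gpd2, the mitochondrial glycerol phosphate dehydrogenase (3.94 ± 0.20, adjusted p = 7.57e-10). Of 47 listed assembly factors 30 were found and tested, of which 25 were higher in BAT and 1 was lower, with a median of 1.04. Lyrm7, which matures the Rieske protein, changed most (2.39 ± 0.11, adjusted p = 3.92e-10), and Surf1, needed for complex IV, did not pass (0.10 ± 0.08, adjusted p = 0.284). The background of genes higher in BAT is the 33.6% given above.

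Of 15 listed regulators of mitochondrial biogenesis 14 were tested, of which 10 were higher in BAT than in iWAT and 3 were lower. The coactivator genes Ppargc1b (3.38 ± 0.10, adjusted p = 1.02e-11) and Ppargc1a (2.68 ± 0.35, adjusted p = 1.04e-05) and the receptor genes Ppara (4.07 ± 0.16, adjusted p = 6.86e-11), Esrrg (3.99 ± 0.26, adjusted p = 1.14e-08) and Esrra (2.30 ± 0.09, adjusted p = 7.49e-11) were among the higher ones. Nrf1, a transcription factor of many respiratory genes, did not pass (-0.17 ± 0.09, adjusted p = 0.13), and Yy1 (-0.40 ± 0.07, adjusted p = 9.34e-05), Gabpb1 and Pprc1 were lower in BAT. Between eWAT and iWAT, 5 of the 14 tested regulators, 4 of the 6 carriers and 10 of the 30 assembly factors were called, all lower in eWAT (13.4% of all genes were lower), with the limit on rows given above. Ppargc1a (-1.45 ± 0.35, adjusted p = 0.0052), Ppargc1b (-1.05 ± 0.13, adjusted p = 1.47e-05) and Ppara (-1.04 ± 0.19, adjusted p = 0.000758) were the regulators with the largest change.

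Promoter sequences from RefSeq (GRCm38.p6, 250 bases before to 50 after the start of transcription) matched 67 of the 83 subunit genes, with 72 promoters. Both strands were searched for the letters of 5 motifs. The NRF1 motif GCGCATGCG was in 11.1% of the subunit promoters and in 1.75% of all 32851 promoters, the YY1 motif AAGATGGC in 13.9% and 2.75%, the ETS motif CCGGAAG in 22.2% and 8.86%, the ERR motif TCAAGGTCA in 2.78% and 0.423%, and the MEF2 motif CTATTTAT in 0% and 1.10%. The subunit promoters also had a higher median GC content, 57.3% against 52.7%. These shares describe letters and not binding, and they were not tested. No match overlaps another in the sequences shown.

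The 3 promoters below belong to paralogs with different patterns: Cox8a was 2.3-fold and Cox8b 19.3-fold higher in BAT than in iWAT, and Atp5g3 was lower. Each line shows the bases from 100 before to 10 after the start of transcription in GRCm38.p6, with motif matches in capitals. Cox8a (chr19:7217607-7217716, - strand) has an ETS match that begins 5 bases before the start, Atp5g3 (chr2:73911317-73911426, - strand) has an ERR match that begins 52 bases before it, and Cox8b (chr7:140900437-140900546, - strand) has no match to the 5 motifs. Both matches read on the strand opposite to the gene, and Cox8a has a second ETS match, 32 bases after the start and outside the bases shown. Cox7a1, Cox7a2, Cox5a and Atp5g1 had no match in the whole window of 300 bases.
Cox8a promoter: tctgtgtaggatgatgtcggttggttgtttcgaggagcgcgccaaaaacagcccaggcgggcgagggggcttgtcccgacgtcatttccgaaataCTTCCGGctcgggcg
Cox8b promoter: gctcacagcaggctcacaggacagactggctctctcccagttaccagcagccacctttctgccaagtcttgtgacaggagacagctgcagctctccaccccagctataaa
Atp5g3 promoter: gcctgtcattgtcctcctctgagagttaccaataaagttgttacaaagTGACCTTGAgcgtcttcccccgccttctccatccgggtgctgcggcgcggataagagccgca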

How the data were processed

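RNA-seq of iWAT adipocytes, eWAT adipocytes and BAT tissue (n = 6 each) was used. Per the labels, reads were trimmed with cutadapt (version 1.16) and aligned with HISAT2 (version 2.1.0) to mm9, and the paper names the Genomatix Genome Analyzer. The authors deposited for each row a read count, which is not normalized, and an RPKM, which equals the count divided by the row length and the total of reads. Whether counting used strand is not given in the sources used here, so overlapping genes on opposite strands may share reads. Libraries held 22929576 to 34512470 reads, and intervals and tests cover these samples only.

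All results were recomputed here. Depots were compared with edgeR (version 4.0.16; glmQLFit and glmQLFTest, TMM, R version 4.3.3) across all genes that reached a minimum of 10 reads in 6 or more samples. The merged row (iWAT, BAT) or the most-read transcript (eWAT) stood for a gene, p-values were adjusted by Benjamini-Hochberg over all genes tested, and 0.05 was the threshold. The code was tested on simulated data. Shares of paralogs were compared with two-sided exact permutation tests in scipy (version 1.17.1) under Python (version 3.11.15). Copies were found with blastn (version 2.17.0) in mm9 with GENCODE gene models, and promoters came from RefSeq.

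Alternatives were the test of DESeq2 (version 1.42.0), that of limma (version 3.58.1) with RPKM on the log2 scale after adding 0.1 or 1, other scalings, filters and rows, a minimum fold change of 2, and fits without samples that stood apart. The members and lists were chosen with earlier results of these data known. Named were, per complex, the 2 subunits with the highest mean RPKM in BAT and those with the largest and smallest change of BAT over iWAT, all subunits called higher in iWAT than in BAT, the largest called change of eWAT against iWAT in each direction, and all paralog families. Rows of mt-Co2, mt-Co3 and mt-Nd4l lie at a nuclear copy and were not used.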

Additional observations from a re-analysis of the deposited data

Results flagged for a closer look

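In each group of 6 samples, a value was listed when its gap to the nearest other sample exceeded 0.625 of the group's range (Dixon's test). Chance lists about 1 in 20 groups, and 15 of the 129 groups checked were listed, which are not independent of each other.

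BAT sample 12, the library with the most skeletal muscle transcripts, was high in Cox6a2 (18.4 RPM) and Atp5g1 (9.02 RPM, and 1.05% of its family). iWAT sample 14, the iWAT library with the most endothelial transcripts, was high in Ndufa4l2 (7.68 RPM, 7.30% of its family), Cox4i2 (1.70 RPM, 0.558% of its family), Cox7a2l (32.3 RPM) and Uqcrc1 (152 RPM). iWAT sample 7 was low in Cox8a (124 RPM) and Atp5g2 (31.4 RPM). In eWAT, sample 8 was high in the share of Cox4i2 (1.42%), and sample 15 was high in Cox6a2 (0.305 RPM) and in the share of Atp5g1 (1.48%). BAT sample 8 was low in the share of Cox6b2 (0.142%). The part of other cell types in these values was not tested.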

How the results depend on the processing

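Among the fold changes of named genes that were counted, 1025 values under the alternatives kept their direction and their side of the threshold. Of the others, 35 changed side and 9 changed direction. The count does not include every eWAT over iWAT value, and named genes outside it changed direction too. With the length offset, Atp5b went from -0.50 to 0.89 and Sdha from -0.64 to 0.99. On the sum of all rows, Ndufv1 went from -0.52 to 0.78 and Atp5a1 from -0.30 to 0.66. Each was called both ways by edgeR. The number of subunits differing between BAT and either white depot kept within 1.5 times in all alternatives except the fit on identical rows, which tested 16 genes (15 called against iWAT and 15 against eWAT). Between eWAT and iWAT the count of 34 became 22 with the transcript of highest RPKM (57.6% of all genes called), 58 with the sum of all rows (71.4%), 2 on identical rows (12.8%) and 1 with a minimum fold change of 2 (3.44%). limma on log2 RPKM gave 29 higher and 4 lower in eWAT (46.9% and 5.41% of all genes with 0.1 added, median of all genes 0.34). Without eWAT sample 15 the count was 28, and without eWAT samples 14 and 15 it was 25.

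The values counted as changed in direction all involve the eWAT row. Atp5g3 for BAT over eWAT became -0.37 (highest RPKM), -1.81 and -1.80 (limma) and -1.51 (length offset), and for eWAT over iWAT 0.95 and 0.94 (limma) and 0.95 (length offset). With the transcript of highest RPKM, Atp5g2 became 0.41 and Cox8a 0.33 for eWAT over iWAT, the share of Cox7a1 -1.80 points and that of Atp5g1 5.99 points. On read counts the eWAT minus iWAT shares became 2.58 (Atp5g1), 5.62 (Atp5g2) and -8.20 points (Atp5g3). The share of Ndufa4l2 for BAT against iWAT lost its call without BAT sample 12 (-1.62 points; -1.65 to -1.62 over the fits without BAT sample 12 or eWAT sample 15). In fits chosen after seeing the data, without iWAT sample 14 and eWAT samples 8 and 13, it lost its call too (-0.77 points), the share of Ndufa4l2 for eWAT against iWAT gained one (2.24 points) and that of Atp5g1 for BAT against eWAT lost one (-0.71 points). Without eWAT sample 15 the share of Atp5g1 for eWAT against iWAT passed (-0.32 points; -0.32 to -0.24 over the same fits). Summed RPKM rescaled with TMM factors moved to 3851 (complex I), 726 (II), 2742 (III), 6639 (IV) and 2653 (V) in BAT and to 159 for complex II in iWAT. The cause of these shifts was not tested.

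With the number in the sample title as a replicate block, 80, 77 and 23 subunits differed (BAT against iWAT, BAT against eWAT, eWAT against iWAT), and Cox4i2 (1.82, adjusted p = 0.0101, edgeR) and Ndufa4l2 (1.38, adjusted p = 0.0108, edgeR) were then called for BAT over iWAT. The numbers are not explained in the labels, and samples of the same number did not deviate together in each pair (correlations of -0.04 to 0.13, -0.16 to 0.06 and -0.33 to 0.14). Depth limits the rarely read paralogs Cox6a2, Cox7b2, Cox8c, Cox4i2 and Cox6b2.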
